A study of Mus musculus with 33 samples.

Results

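The regions described here are 431 p53 binding regions of mouse B cell lymphomas that carried a p53 peak in every sample with active p53 and, in addition, in some but not all samples of wild-type p53 that had not been activated. They were chosen by the presence of called peaks. The peaks of 26 lists, each from 1 chromatin immunoprecipitation and sequencing (ChIP-seq) library made with the CM5p antibody against p53, were merged where they shared 1 bp or more. A region was kept when all 10 lists of activated p53 had a peak in it, no list of ethanol-treated cells had one, and 1 to 11 of the 12 other lists had one. Of 18927 merged regions, 431 met these conditions, which is 2.28% of all regions and is set by the rule.

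All 7 tumours were lymph node B cell lymphomas of C57/Bl6 Eµ-myc mice, in which the Myc oncogene is driven in B cells, and the cells were pressed from lymph nodes without purification. Tumours 1 to 4 had the genotype Trp53 KI/delta, a knock-in allele over a deleted one. Each was treated for 2 h with 100 nM OHT (4-hydroxytamoxifen), which activates the knock-in p53, or with EtOH (1 volume per 1000). Tumours 5 to 7 were Arf-/- Trp53+/+ and were sampled untreated or after 3 h with water (1 volume per 1000), DMSO (0.5 volumes per 1000), 5 µM (+)-Nutlin, 5 µM (-)-Nutlin or 1 µM doxorubicin. "Activated" below stands for the 4 OHT, 3 doxorubicin and 3 (-)-Nutlin lists, and "unactivated" for the 12 lists of tumours 5 to 7 from cells left untreated or given water, DMSO or (+)-Nutlin. Each tumour is 1 animal. Genotype, agent and duration all change between the KI and Arf sets. The lists hold binding and no expression, so the B cell identity of the samples was not checked here.

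As background, p53 is a transcription factor that is kept at a low level by Mdm2, an enzyme that marks it for degradation and is itself a p53 target. Arf inhibits Mdm2, doxorubicin damages DNA and so signals to p53, and the Nutlins are mirror-image forms of a small molecule of which the (-) form occupies the p53 pocket of Mdm2 and the (+) form binds it far less tightly. A peak called before activation can mark a place where some p53 was already on chromatin. The lists carry no scores by which to judge a single call.

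The lists differed in length and in the kind of peak. Activated lists held 3597 to 11346 peaks, unactivated lists 707 to 2696 and EtOH lists 116 to 742. Activated lists and all lists of tumour 5 had wide peaks, none under 278 bp, with medians of 417 to 552 bp. The unactivated lists of tumours 6 and 7 and the EtOH lists had peaks from 52 bp upwards, with medians of 68 to 111 bp. Comparisons of activated with unactivated lists therefore stay within 1 kind of list only in tumour 5. Read depth is unknown here.

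Most of the regions were found in few unactivated lists. A peak was present in 1 of the 12 lists at 108 regions, in 2 at 80, in 3 at 56 and in 4 at 47, and the median was 3. At the other end, 14 regions had a peak in 10 lists and 13 in 11. Altogether 325 regions (75.4%) were in 1 to 5 lists and 106 (24.6%) in 6 to 11. The number of members depends on tumour 5 and on narrow peaks: it was 258 without tumour 5, 215 when the narrowest 25% of each list, activated ones included, were left out and 169 when each unactivated list was limited to its 707 widest peaks. Just outside the rule lay 163 regions with a peak in all activated lists and in none of the 12, and 152 with a peak in all 12, again without EtOH peaks. A further 271 regions would have been members but for a peak in an EtOH list, in 177 cases in exactly 1 of the 4. Another 548 had 1 to 11 unactivated lists and no EtOH list but lacked 1 activated list, which was OHT of tumour 1 in 168 cases, of tumour 4 in 146 and of tumour 2 in 127, and doxorubicin of tumour 6 in 90.

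Tumour 5 supplied most of the peaks before activation. In this tumour 304 members (70.5%) had a peak in the untreated list, 244 (56.6%) in the water list, 175 (40.6%) in the DMSO list and 267 (61.9%) in the (+)-Nutlin list. In tumour 6 the numbers were 188 (43.6%), 166 (38.5%), 73 (16.9%) and 104 (24.1%) in the same order. In tumour 7 they were 26 (6.03%), 38 (8.82%), 45 (10.4%) and 31 (7.19%). Every list of tumour 7 thus lay below every list of the other tumours, while tumours 5 and 6 overlapped, since DMSO in tumour 5 lay below untreated cells of tumour 6.

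The same shares over all 18927 regions were, in the same order of treatments, 14.1%, 11.6%, 8.91% and 12.3% in tumour 5. They were 7.99%, 6.2%, 3.42% and 4.26% in tumour 6 and 2.46%, 2.91%, 3.04% and 2.56% in tumour 7. The members' shares are higher by the rule, which asks for at least 1 peak among these lists, and nothing is read from that. List length ran with the order of the tumours: 1694 to 2696 peaks in tumour 5, 935 to 2180 in tumour 6 and 707 to 892 in tumour 7. Member regions called per 100 peaks of a list numbered 10.3 to 11.4 in tumour 5 and 7.81 to 9.99 in tumour 6. In tumour 7 they numbered 3.50 to 5.05. A region with more than 1 peak of a list counts once here. Such regions made up 1.31%, 29.9% and 24.3% of the calls in tumours 5, 6 and 7. The values therefore count regions and not peaks.

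**Figure D1:**
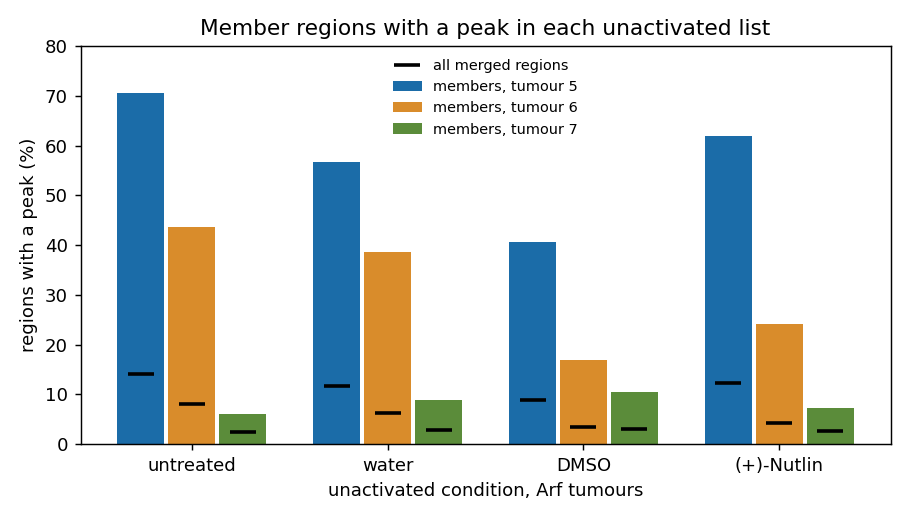
Percent of the 431 member regions with a peak in each of the 12 unactivated lists (bars, 1 library each, coloured by tumour), with the percent of all 18927 merged regions in the same list (black dashes). Bars of tumour 7 lie between 6.03% and 10.4%, below all bars of tumours 5 and 6.

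The 3 tumours are described over their 4 unactivated lists each. The rule used these lists and admits more members through longer ones, so the differences have no test and are not findings. On average 57.4% ± 12.6 (SD, n = 4 lists) of members had a peak in a list of tumour 5, 30.8% ± 12.4 (SD, n = 4) in tumour 6 and 8.12% ± 1.92 (SD, n = 4) in tumour 7. The mean of tumour 5 minus that of tumour 7 was 49.3 percentage points, tumour 6 minus tumour 7 was 22.7 and tumour 5 minus tumour 6 was 26.6. With each list limited to its 707 widest peaks, as many as the shortest holds, the difference between tumours 5 and 6 was -1.48 points, while tumour 7 stayed 19.8 points below tumour 5 and 21.3 below tumour 6. Tumours 6 and 7 have lists of the same narrow kind, and tumour 5 does not.

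The sharing of calls between tumours is set beside that of all regions. Of the 74 members with any unactivated peak in tumour 7, 71 (95.9%) also had one in tumour 5, where they made up 18.9% of 376, and 63 (85.1%) had one in tumour 6, or 25.7% of 245. Members of tumour 6 were shared with tumour 5 in 192 cases, 78.4% of the first and 51.1% of the second. Over all merged regions, 89.2% of those called in tumour 7 were also called in tumour 5 and 82.7% in tumour 6, and 76.2% of those called in tumour 6 were also called in tumour 5. The shares at members were near these, so the overlap is not read as a property of the members. A peak in tumour 5 alone was found at 175 members, in tumour 6 alone at 52 and in tumour 7 alone at 2, against 10.5%, 2.28% and 0.291% of all regions. All 3 tumours had a peak at 62 members and at 3.32% of all regions.

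Calls repeated within a tumour in part. All 4 unactivated lists had a peak at 138 members in tumour 5, 49 in tumour 6 and 6 in tumour 7, against 6.76%, 2.49% and 1.76% of all regions. Of the 108 members seen in a single list, 35 were in untreated and 23 in (+)-Nutlin-treated cells of tumour 5, and 16 were in untreated cells of tumour 6. The single gap of the 13 members with 11 lists lay in tumour 7 in 9 cases and in tumour 6 in 4, with 5 of the 13 gaps in the (+)-Nutlin list of tumour 7.

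Solvents and the inactive Nutlin were then set side by side at these regions. Untreated lists had a peak at 40.1% ± 32.4 of members, water lists at 34.6% ± 24.1, DMSO lists at 22.7% ± 15.9 and (+)-Nutlin lists at 31.1% ± 28.0 (SD, n = 3 each). All 3 lists of a condition had a peak at 21, 26, 26 and 16 members in this order, against 2.1%, 2.31%, 2.11% and 1.98% of all regions. DMSO minus untreated was -29.9 points in tumour 5, -26.7 in tumour 6 and 4.41 in tumour 7. The rule used these lists, so the condition means are a description with no test.

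(+)-Nutlin and DMSO, its solvent, differed by 8.43 points on average. The difference was 21.3 points in tumour 5, 7.19 in tumour 6 and -3.25 in tumour 7. The tumours thus did not share a direction. No member was in all 3 (+)-Nutlin lists and no DMSO list, nor the other way round, and of all regions 0% were in either case. The mirror-image (-) form had a peak at all 431 members by the rule.

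Peaks before activation are placed here against the middle of the activated peaks. A peak counts only where it joins the merged region, of median length 911 bp, so nearness is in part set by the merging. No shares over all regions stand beside those below, which are not read as a property of the members. The centre of a region was taken as the mean midpoint of its widest peak in the 10 activated lists. In tumour 5, 950 of 990 calls (96.0%) covered this centre. The short peaks of the other tumours covered it less often, in 222 of 531 calls (41.8%) in tumour 6 and 32 of 140 (22.9%) in tumour 7. Even so, 79.8% to 87.7% of the calls in the lists of tumour 6 and 60.5% to 80.6% in those of tumour 7 came within 100 bp of the centre. The median distance from peak to centre, 0 where the peak covers it, was 13 to 24.6 bp in tumour 6 and 42.1 to 79.9 bp in tumour 7. More than 1 short peak in a region was found for 159 of the 531 calls in tumour 6 (29.9%), and for 13 of 990 (1.31%) in tumour 5.

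In tumour 5, where all lists hold wide peaks, widths could be compared before and after activation. Width is the only size that the lists give, and the rule did not use it directly. The rule did ask for a peak in each activated list, and it left out regions with a peak in all 12 unactivated lists. Both bear on the ratio of widths. Higher values than over all regions or at regions in all 12 are therefore not read as a property of the members. At the 244 members with peaks in both, doxorubicin peaks had a median width of 810 bp and water peaks 473.5 bp, with a median log2 ratio of 0.68. The doxorubicin peak was the wider at 230 of them (94.3%), against 87% of all regions with both peaks. (-)-Nutlin exceeded DMSO at 165 of 175 members (94.3%, against 84.7% of all regions), with medians of 735 and 460 bp and a median log2 ratio of 0.51. At regions with a peak in all 12 unactivated lists the median log2 ratios were lower, 0.34 for doxorubicin over water and 0.30 for (-)-Nutlin over DMSO. These are values of 1 tumour and have no replicate check.

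The enantiomers could be compared in the same way and with the same limit. (-)-Nutlin peaks were wider than (+)-Nutlin peaks at 237 of 267 members (88.8%), against 79% of all regions, with medians of 657 and 476 bp and a median log2 ratio of 0.40. (+)-Nutlin over DMSO gave a median log2 ratio of 0.18, with the (+)-Nutlin peak wider at 121 of 158 members (76.6%) and at 72.8% of 1413 regions overall.

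**Figure D2:**
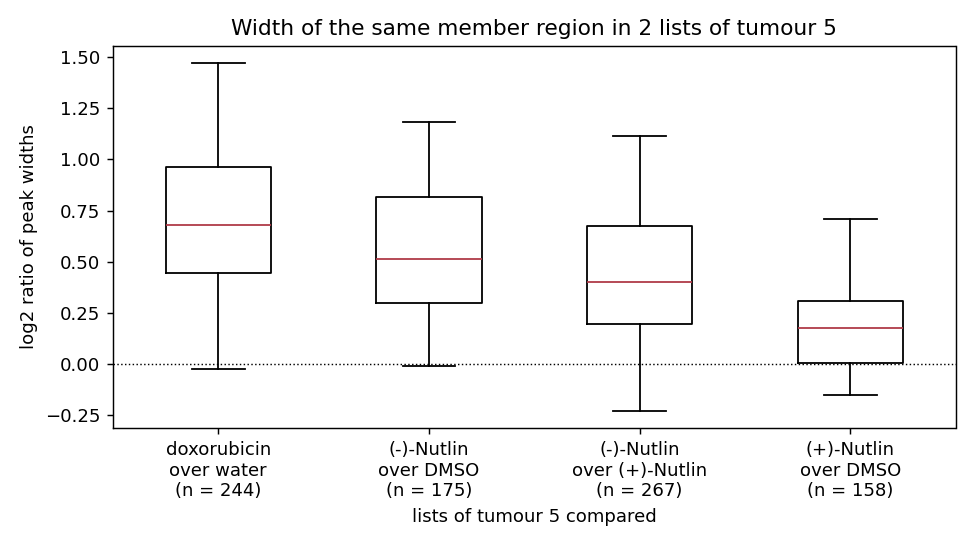
Log2 ratio of peak widths at the same member region in 2 lists of tumour 5, for 4 pairs of lists, with n the members with a peak in both. Red lines are medians (0.68, 0.51, 0.40 and 0.18 from left to right), boxes the middle 50% and whiskers the 5th to 95th percentiles over regions, and the dotted line marks equal width.

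Member peaks had a higher median width than regions without any unactivated peak in all 10 activated lists, in a comparison too small to pass a test. In the OHT lists of tumours 1 to 4 the median member peak was 502, 527, 658 and 567 bp wide, and the median peak at the 163 regions with no unactivated list was 446, 477, 598 and 530 bp. The mean log2 ratio was 0.14, and it lay between 0.10 and 0.17 in the 4 lists. Its 95% interval from the t distribution was 0.09 to 0.19. That interval assumes a normal spread, which 4 values cannot show. The exact permutation p by sign changes was 0.13, which is as low as 4 tumours can give. The doxorubicin and (-)-Nutlin lists went the same way, with member medians of 713, 510 and 721 bp for doxorubicin in tumours 5, 6 and 7 against 571, 414 and 608 bp, and of 611, 598 and 592 bp for (-)-Nutlin against 462, 472 and 519 bp. With the narrowest 25% of each list left out, the mean log2 ratio in the OHT lists was 0.12. The exact permutation p by sign changes was then 0.375, so not all 4 OHT lists had the higher median at members. OHT-treated tumours have no list among the 12 that separate these groups. Regions were merged by 1 bp of overlap, however, so a region with wider activated peaks can more readily take in an unactivated peak. The part of this in the difference was not tested.

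Against regions with a peak in all 12 unactivated lists the OHT lists did not go 1 way. The medians there were 939, 673, 806.5 and 457 bp in tumours 1 to 4, above the members in tumours 1 to 3 and below them in tumour 4. The mean log2 ratio of members to these regions was -0.31, from -0.90 in tumour 1 to 0.31 in tumour 4, and the exact permutation p was 0.375. In the 6 doxorubicin and (-)-Nutlin lists the regions in all 12 were wider throughout, with medians of 1054.5 to 1579 bp.

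Width varied with the number of unactivated lists a member was in, and OHT of tumour 4 ran against OHT of tumours 1 and 2. In OHT of tumour 1 the median width was 447 bp at the 325 members in 1 to 5 lists and 790 bp at the 106 in 6 to 11. In OHT of tumour 2 these medians were 500 and 649.5 bp and in tumour 3 647 and 693.5 bp. By single numbers of lists tumour 3 had no steady rise, with 657 bp at 1 list, 637 bp at 6 and 640 bp at 11. In OHT of tumour 4 the order was turned, with 593 and 463.5 bp. The division between 5 and 6 lists was made after the values were seen, so it is a description with no test. The limit set by the merging holds here too.

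**Figure D3:**
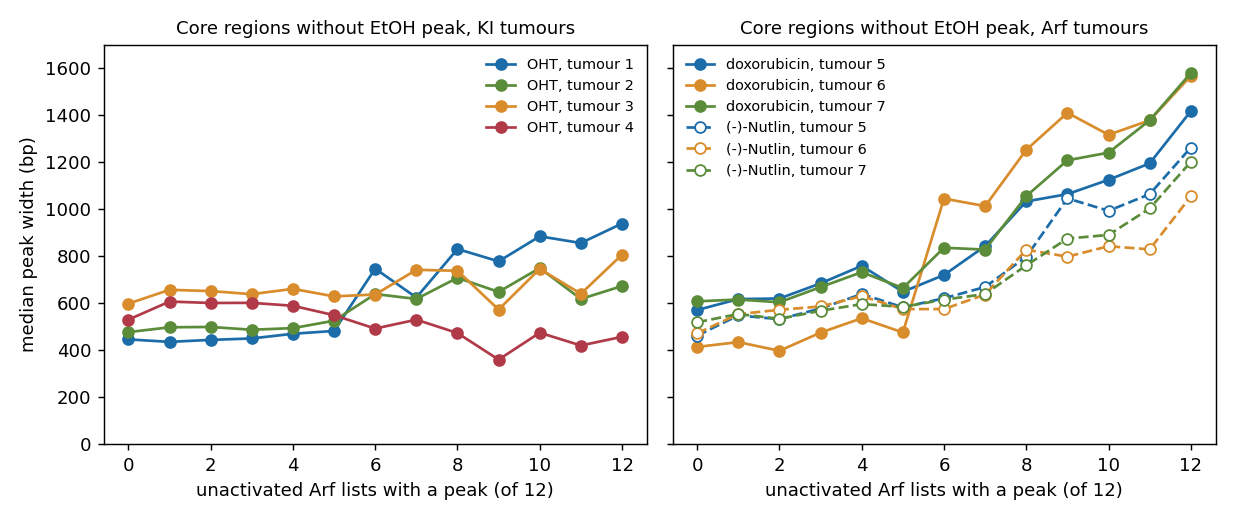
Median peak width in base pairs against the number of unactivated lists with a peak, over regions in all activated and no EtOH list, for each OHT list (left) and each doxorubicin (filled, solid) and (-)-Nutlin list (open, dashed; right). Points at 1 to 11 are the members. The line of OHT in tumour 4 falls from 607 bp at 1 list to 420 bp at 11, while that of OHT in tumour 1 rises from 435.5 to 856 bp and that of doxorubicin in tumour 6 from 434.5 to 1378 bp. The line of OHT in tumour 3 stands at 657 bp at 1 list and at 640 bp at 11.

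Region by region, the OHT lists of tumours 1 and 4 separated the same sets. The peak was wider in tumour 1 than in tumour 4 at 75 of the 325 members in 1 to 5 lists (23.1%) and at 89 of the 106 in 6 to 11 (84.0%). The median log2 ratio was -0.37 in the first set and 0.86 in the second. Outside the rule, the peak was wider in tumour 1 at 52 of 163 regions (31.9%) with no unactivated list, a higher share than at 1 to 5 lists, and at 151 of 152 (99.3%) with all 12. The share over all merged regions with a peak in both lists is not given here. Across the 431 members the log2 widths of these lists had a Pearson correlation of 0.02, compared with 0.69 between OHT of tumours 1 and 2 and 0.60 between tumours 3 and 4. Regions of 1 genome share libraries and are not replicates, so these coefficients only describe the lists. The lists of tumours 1 and 2 were also the shorter ones, with 4102 and 3597 peaks against 10084 and 9738, and the part of list length in this pattern was not tested.

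A like division appeared between the activators in tumour 6, where the order of the medians turned between the sets. In tumours 5 and 7 that order did not turn. Doxorubicin gave the wider peak of tumour 6 at 86 of 325 members in 1 to 5 lists (26.5%) and at 93 of 106 in 6 to 11 (87.7%), relative to (-)-Nutlin. Outside the rule, it did so at 50 of 163 regions (30.7%) with no unactivated list and at 150 of 152 (98.7%) with all 12. The division is therefore not particular to the members. Medians under doxorubicin were 444 and 1212.5 bp in these sets, and under (-)-Nutlin 573 and 728 bp. In tumour 5 they were 659 and 932 bp under doxorubicin and 564 and 784.5 bp under (-)-Nutlin. In tumour 7 they were 641 and 1087.5 bp under doxorubicin and 561 and 748.5 bp under (-)-Nutlin. Doxorubicin thus had the higher median in both sets in tumours 5 and 7. At regions in all 12 lists its peak was the wider at 136 of 152 in tumour 5 and at all 152 in tumour 7.

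Over all members doxorubicin and (-)-Nutlin, the activators given to the same 3 tumours, did not differ in one direction. The doxorubicin peak was wider at 342 of 431 members (79.4%) in tumour 5, 179 (41.5%) in tumour 6 and 338 (78.4%) in tumour 7, against 76.7%, 51.6% and 74.7% of all regions with both peaks. The log2 ratio of the member medians was 0.22, -0.23 and 0.28 in tumours 5, 6 and 7, with a mean of 0.092. The exact permutation p over 3 against 3 lists, which cannot go below 0.1, was 0.5. The paired 95% interval from the t distribution ran from -0.60 to 0.79. When widths were divided by the median of their list the mean became -0.10. Without tumour 7, over the 400 regions that then met the rule, it was -0.033.

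**Figure D4:**
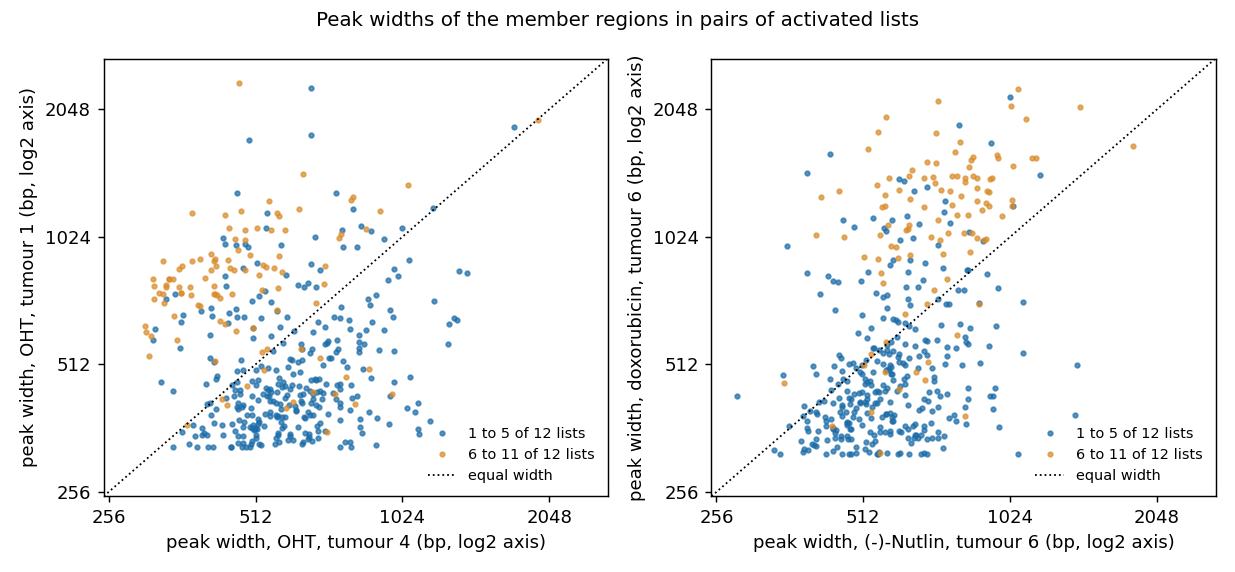
Peak widths in base pairs (log2 axes) of the 431 members, 1 point each, in OHT of tumour 1 against OHT of tumour 4 (left) and in doxorubicin against (-)-Nutlin of tumour 6 (right), coloured by the number of unactivated lists. Of the 106 members in 6 to 11 lists, 89 lie above the line of equal width on the left and 93 on the right.

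The share of regions with an EtOH peak also varied with the number of unactivated lists. The rule used the EtOH lists, so this is a description. Of the 1091 regions in all 10 activated lists, 345 had a peak in an EtOH list. The share was 12.8% where no unactivated list had a peak, 22.9% at 1 list, 49.5% at 3, 58.7% at 6, 29.4% at 8, 12.5% at 10 and 7.14% at 11. It was 24.8% at 12. The shares at 10 and 11 lists rest on 2 of 16 and 1 of 14 regions. At 12 lists 48 of the 50 EtOH regions were in the EtOH list of tumour 1, which had a peak at no region seen in 0 to 3 lists. The EtOH list of tumour 3, the longest with 742 peaks, had 40 at regions in 3 lists and 22 at those in 12.

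Regions that missed membership through an EtOH peak had another width profile in the band of 6 to 11 lists. With 6 to 11 unactivated lists, the OHT peak was wider in tumour 1 than in tumour 4 at 14 of 65 regions with an EtOH peak (21.5%) and at 89 of 106 members (84.0%). Doxorubicin exceeded (-)-Nutlin in tumour 6 at 13 of the 65 (20%) and at 93 of the 106. Median widths of the 65 in OHT of tumours 1 and 4 were 500 and 651 bp, where those of the members were 790 and 463.5 bp. The band does not match the sets by number of lists: 27 of the 65 were in 6 lists, against 19 of the 106. At 12 lists, regions with an EtOH peak were wider in tumour 1 at 49 of 50 (98%), near the 99.3% without one. Absence from EtOH lists of 116 to 742 peaks does not show that p53 was absent, since a short list can miss a weak site.

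**Figure D5:**
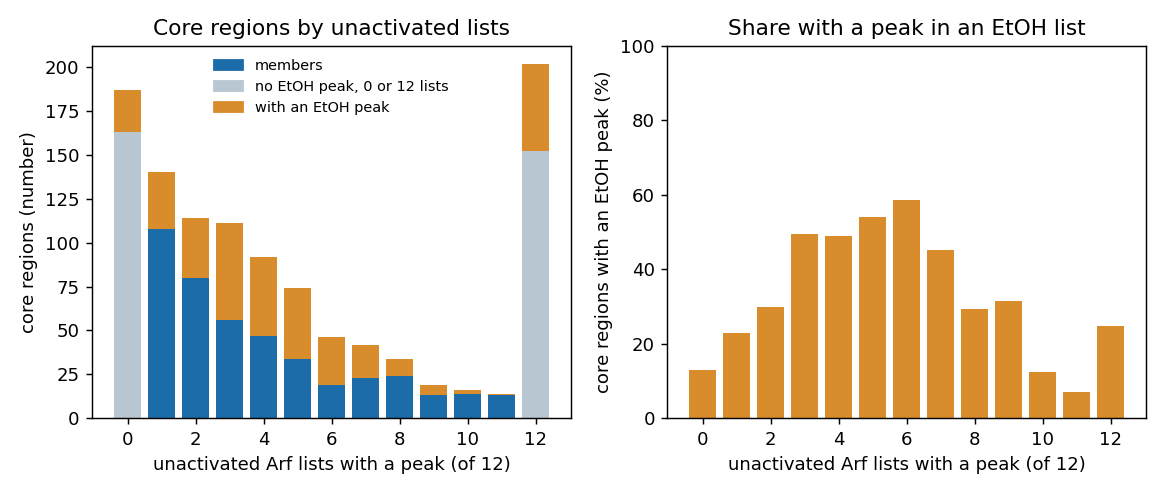
Left: number of regions in all 10 activated lists by the number of unactivated lists with a peak, split into members (blue), regions in 0 or 12 lists without an EtOH peak (grey) and regions with an EtOH peak (orange). Right: percent of these regions with a peak in at least 1 EtOH list, which is highest at 6 lists (58.7%) and lowest at 11 (7.14%, 1 of 14 regions).

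Single regions show these profiles in every list. They are ranked by the percentile of their width in each activated list, averaged over the 10 lists, and "widest" below means highest in this rank. Coordinates are of build mm9, counted from 1, and gene context and sequence were not analysed here. The widest member lay on chromosome 5 from 92390401 to 92392507. Its peaks were 1932, 1359, 2059 and 1942 bp in OHT of tumours 1 to 4, 1967, 1677 and 2027 bp under doxorubicin in tumours 5 to 7 and 1529, 1828 and 1562 bp under (-)-Nutlin. Before activation, tumour 5 had peaks of 400 bp untreated, 447 bp in water, 449 bp in DMSO and 1186 bp with (+)-Nutlin, tumour 6 had its widest peaks at 172, 54, 55 and 67 bp, and tumour 7 had none. All activated peaks were thus wider than any unactivated one, and (+)-Nutlin in tumour 5 stood apart from the other 3 lists of that tumour.

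A region on chromosome 15 from 85689726 to 85691089 had the same 8 unactivated lists with a narrower span of widths. OHT peaks were 1249, 1002, 1058 and 804 bp, doxorubicin peaks 1337, 1150 and 1217 bp and (-)-Nutlin peaks 1020, 986 and 1046 bp. In tumour 5 the unactivated peaks were 618, 650, 728 and 766 bp for untreated, water, DMSO and (+)-Nutlin. No unactivated peak reached the narrowest activated one.

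On chromosome 3 from 58320287 to 58321872 lay a member close to the lower limit of the rule, with an untreated peak of 382 bp in tumour 5, one of 53 bp in tumour 6 and none elsewhere. Its activated peaks ranked the fourth of all members, with OHT peaks of 1200, 1193, 1299 and 1183 bp, doxorubicin peaks of 1396, 1210 and 1400 bp and (-)-Nutlin peaks of 930, 1039 and 710 bp. Every doxorubicin peak was wider than every (-)-Nutlin peak. A member on chromosome 3 from 61166690 to 61168888 was called in tumour 5 only, untreated, in water and with (+)-Nutlin, and its OHT peaks of 1779, 942, 1784 and 666 bp varied far more.

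The widest members in a single unactivated list lay on chromosome 19 from 32786393 to 32787640 (untreated, tumour 5), chromosome 1 from 88399475 to 88401337 and chromosome 2 from 127163269 to 127164777 (both (+)-Nutlin, tumour 5). The first had OHT peaks of 1072, 958, 1037 and 1020 bp, an even set, and its unactivated peak was 380 bp. The second had OHT peaks of 779, 628, 1749 and 680 bp, with tumour 3 apart from the rest. Its doxorubicin peaks were 1463, 510 and 1863 bp and its (-)-Nutlin peaks 664, 1405 and 1361 bp, so tumours 5 and 6 differed in opposite directions.

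Among the 13 members in 11 of 12 lists, the OHT peak of tumour 1 was the widest at 11 and that of tumour 4 the narrowest at 12, with both at 10. The peak was wider in tumour 1 than in tumour 4 at all 13. It also was at 151 of 152 regions in all 12 lists, so this is not particular to the 13. The order over all regions is not given here. On chromosome 7 from 133399039 to 133400670 the OHT peaks were 865, 607, 723 and 453 bp, and on chromosome 5 from 36123896 to 36125297 they were 1012, 531, 920 and 465 bp. On chromosome 9 from 110968802 to 110970272 they were 1179, 618, 963 and 479 bp. In each of the 3 regions tumour 1 was widest and tumour 4 narrowest. The first of them had doxorubicin peaks of 1420, 1597 and 1448 bp, (-)-Nutlin peaks of 1235, 962 and 1147 bp, and unactivated peaks of 869 to 925 bp in tumour 5, 167 to 416 bp in tumour 6 and 129 to 151 bp in the 3 lists of tumour 7 that had one. Its missing list was (+)-Nutlin of tumour 7.

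A peak in all 4 unactivated lists of tumour 5 and in none of tumours 6 and 7 was found at 22 members, against 1.47% of all regions. The widest of them lay on chromosome 2 from 167641128 to 167642812, with unactivated peaks of 570, 560, 519 and 546 bp, and on chromosome 17 from 34255639 to 34257049, with peaks of 441, 463, 352 and 591 bp, for untreated, water, DMSO and (+)-Nutlin. Tumour 6 had 1 such member, against 0.0317% of all regions, on chromosome 1 from 7153483 to 7154449, with short peaks of 137, 69, 89 and 118 bp. Its OHT peaks were 967, 845, 628 and 494 bp and its (-)-Nutlin peaks 315, 449 and 481 bp, with the narrowest in tumour 5. Tumour 7 had no such member, and 0% of all regions were of this kind.

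The other 6 of the 10 widest members had 5 to 10 unactivated lists. The region on chromosome 1 from 135975121 to 135976622 and that on chromosome 11 from 109755260 to 109756832 were in 10 lists each, all of tumours 5 and 6 and 2 of tumour 7. Those on chromosome 16 from 20701498 to 20702919 and chromosome 7 from 17426193 to 17427532 were in 8 and 7. Those on chromosome 7 from 71143484 to 71144962 and chromosome 6 from 117829034 to 117830352 were in 5, which were all 4 of tumour 5 and the untreated list of tumour 6. All 6 had peaks in every unactivated list of tumour 5.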

How the data were processed

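Each of 26 ChIP libraries (of 33 samples, 7 of them inputs without a list here) has 1 deposited list of peak positions in base pairs, without scores or p-values. BWA 0.6.2, SAMtools and build mm9 are named in the submitters' processing notes. How peaks were called, at which threshold and against which input is not stated there or in the labels. Chromatin fragments averaged 250 bp, per the labels' protocols.

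Lists were merged as the rule says, and the width of a list in a region is that of its widest peak there. Peak widths in activated lists were tested by two-sided exact permutations over lists, or sign changes within tumours, with a threshold of 0.05 (Python 3.11.15, numpy 2.4.6, scipy 1.17.1), after the code was tested on simulated lists. Tumour numbers in the titles mark cells of the same tumour and so pair the samples. No gene list or motif was used, because the annotation and sequences at hand were of another build, GRCm38, and mm9 sequence was not used here.

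Tests planned on the shares of members called in unactivated lists are not reported, because the rule used those lists. The members, tests and named regions were chosen with earlier results of these data known. Named are the 10 members with the highest mean percentile of width over the activated lists, the 3 highest in 11 and the 3 highest in 1 of 12 lists, and up to 2 per tumour with all 4 unactivated lists of that tumour alone, without chromosome 18. Alternatives were 200 bp peaks, a 200 bp merge gap, the narrowest 25% of each list left out, a peak within 100 bp of the centre, other summaries of width, the tumour as a block and leaving out each tumour. List length and leaving out each condition were added after seeing the data.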

Additional observations from a re-analysis of the deposited data

Results flagged for a closer look

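Of 27 groups of 4 lists examined for a sample far from the others, 2 had one, and chance gives about 1 in 20. At the member on chromosome 1 from 88399475 to 88401337 the OHT peak of tumour 3 was 1749 bp wide and the other 3 were 628 to 779 bp. At the member on chromosome 3 from 58320287 to 58321872 the OHT peak of tumour 3 was 1299 bp wide and the others 1183 to 1200 bp, so the gap is large only beside the small spread of the rest.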

How the results depend on the processing

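Lists without scores or depth limit every value here to presence and width. The number of members was 215 with the narrowest 25% of each list left out and 169 with the 12 unactivated lists limited to the shortest, and 258 to 612 with 1 tumour left out (258 without tumour 5, which hold 59.4% of the 431). It was 411 to 492 under the other settings. Where a setting changed this number, the differences below were taken over the regions that then met the rule, and not over the 431. With lists of equal length, differences changed sign for water against untreated (2.37 points), (+)-Nutlin against untreated (3.75) and against water (1.38), and tumour 5 against 6 (-1.48). (+)-Nutlin against water was 3.29 without tumour 6, and ranged from -13.6 to 3.29 with 1 tumour left out. Doxorubicin against (-)-Nutlin in width was -0.10 when scaled to the list's median and -0.033 to 0.26 with 1 tumour left out. With the narrowest 25% of each list left out it was 0.29. Under that setting the mean log2 width ratio in OHT lists of members to regions in none of the 12 was 0.12. Its exact permutation p by sign changes was 0.375, so the OHT lists did not all go 1 way. Counting only peaks within 100 bp of the centre, tumour 5 exceeded tumour 6 by 32.4 points. With 1 condition left out, tumour 5 exceeded tumour 7 by 51.1 to 56.5 points and tumour 6 by 24.75 to 31.7, and tumour 6 exceeded tumour 7 by 20.5 to 28.5. With the tumour as a replicate block the paired exact p was 0.75 for the doxorubicin against (-)-Nutlin width (0.092), where 3 pairs cannot give less than 0.25. Shares of members called were not tested, since the rule used those lists.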

Other observations

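The members were spread over the genome singly. None had another member within 1000 bp, 6 of 431 had one within 5000 bp and 47 within 50000 bp. No EtOH peak came within 1000 bp of a member, and 6 members had one within 5000 bp. Chromosome 13 held 4 members (0.93%), 1.28% of the 1091 regions in all activated lists and 3.85% of all merged regions, and chromosome X held 1 member (0.23%), against 0.37% and 1.81%. Both chromosomes are named after their values were seen. Merged members were 510 to 2415 bp long with a median of 911 bp, between 755 bp for regions in no unactivated list and 1801.5 bp for those in all 12.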
